A study of Mus musculus with 9 samples.

Results

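Meis1, Meis2, Meis3, Pbx2, Pbx3 and Pknox1 encode homeodomain proteins of the TALE class that bind DNA together with Hox proteins. They were followed as 6 genes, found through the RefSeq transcript of each array probe, out of 20660 genes with a probe on the array and 13120 genes that could be tested. The 6 genes had 9 probes, of which 7 were well above background on all 9 arrays. These 7 probes covered 5 genes, and Meis2 could not be tested.

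The cells were mouse LSK cells, the marrow fraction without lineage markers and with Sca-1 and Kit, which holds haematopoietic stem cells and early progenitors. They had been transduced with a GFP-labelled vector, taken from transplanted mice and sorted, on the C57BL/6 background that every group shared. The 3 groups carried an empty vector, wild-type DNMT3A, or its R882H form, with 3 arrays each. DNMT3A is a DNA methyltransferase that adds new methyl groups at CG dinucleotides, and R882H is a recurrent substitution of it in acute myeloid leukaemia. The promoter that drove the transgene, the age of the mice and any pooling of animals were not found in the sources used here. Nothing in the labels says that the 3 samples of a group came from separate mice, so the p-values rest on a spread between samples that could be technical.

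Meis proteins carry a strong activation function but form their most stable DNA complexes with a partner. Pbx proteins bind both Meis proteins and Hox proteins, which brings the complex together and holds Meis and Pbx in the nucleus. Pknox1, also called Prep1, competes with Meis1 for Pbx. In the marrow Meis1 is needed for the maintenance of stem cells and the megakaryocyte lineage, and Meis1, Pbx3 and Hoxa9 together are a transforming combination in myeloid leukaemia.

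Since DNMT3A acts on CG dinucleotides, the RefSeq sequences before the gene starts are shown for the Meis genes, to show where such dinucleotides lie; methylation was not measured. A window was found for 4 of the 6 members, in build GRCm38.p6. Meis1 lies on the minus strand, with its window at chr11:19018970-19019219. The window of Meis2 is chr2:116064620-116064869 on the minus strand, and that of Meis3 is chr7:16175145-16175394 on the plus strand. Each sequence covers the 250 bases that end at the base before the start, 5′ to 3′ on the strand of the gene, with each CG in capitals.
Meis1: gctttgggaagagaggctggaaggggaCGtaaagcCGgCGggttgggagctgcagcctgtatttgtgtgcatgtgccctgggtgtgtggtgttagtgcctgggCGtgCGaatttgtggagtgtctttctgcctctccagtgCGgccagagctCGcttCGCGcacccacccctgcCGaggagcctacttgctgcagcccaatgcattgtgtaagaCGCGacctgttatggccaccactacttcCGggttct
Meis2: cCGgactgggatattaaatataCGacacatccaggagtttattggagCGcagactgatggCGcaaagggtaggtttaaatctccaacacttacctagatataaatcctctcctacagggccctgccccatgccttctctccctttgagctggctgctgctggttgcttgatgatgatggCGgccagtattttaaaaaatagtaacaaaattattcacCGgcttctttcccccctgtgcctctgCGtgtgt
Meis3: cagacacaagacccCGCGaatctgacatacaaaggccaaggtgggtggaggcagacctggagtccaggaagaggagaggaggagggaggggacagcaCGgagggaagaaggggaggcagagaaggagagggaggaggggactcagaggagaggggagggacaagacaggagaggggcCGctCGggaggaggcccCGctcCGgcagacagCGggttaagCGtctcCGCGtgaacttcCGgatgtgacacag

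The window of Meis1 held 13 CG dinucleotides, that of Meis2 held 7 and that of Meis3 held 12, against a median of 6 over 32851 windows of the same length. These numbers were reached by 31.5%, 46.3% and 33.5% of all windows. The window of Pbx2, which is not printed, held 27, a number that 8.56% of all windows reached. The letters CCGGAAGT, a site of ETS family factors, were searched on both strands and were found once in Meis1, written as ACTTCCGG from base 13 to base 6 before the start. They were found once in Meis3 as well, from base 19 to base 12 before the start, and in 2.88% of all windows. Further strings were searched on both strands, and no match overlapped another in these windows. TGACAG, the core bound by Meis and Pknox proteins, was in 15.9% of all windows, TGATTGAT, a joint Pbx and Hox site, in 0.67%, and TGACGTCA, the site of CREB factors, in 1.55%. None of these 3 strings was in the 4 windows of the members.

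Signals are given as log2 of the processed intensity minus the 75th percentile of the same array, so that a difference of 1 between groups is a doubling. Levels of different probes cannot be set against each other on this scale. Between 53.4% and 64.8% of the 55681 probes on an array were well above background, and no spot was saturated; precision is limited by having 3 arrays per group. The labelled cell type was checked on its markers: all 8 genes of the LSK, stem and progenitor list were tested, Ly6a (Sca-1) and Kit being well above background on all 9 arrays. Slamf1 of this list reached testing only through the R882H arrays. Of 11 granulocyte and monocyte genes 8 were also well above background on every array, Itgam, a lineage marker, among them. Of 10 B lineage genes 6 reached the signal needed for testing. The Dnmt3a probe ranged from 0.51 to 1.44 with empty vector, from 0.45 to 1.80 under wild-type DNMT3A and from 1.08 to 1.67 under R882H, so the groups overlapped. No source used here says whether it can read the transgene, so it does not check the labels.

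Groups were taken from the labels of the scanner output of each array. Of the 9 columns in the authors' deposited value table, 7 held the values of another sample's array, and 4 of these were arrays of another group. Read by the scanner labels, the columns held, from first to last, the 3 empty vector, the 3 R882H and the 3 wild-type arrays. The column names do not follow that order. Which assignment is right cannot be told from the files, so the differences by the columns of that table are given with each tested member. Slides were the other split. All 3 empty vector arrays shared a slide with 1 wild-type DNMT3A array, 2 wild-type and 2 R882H arrays shared another, and the third slide held 1 R882H array. Empty vector and R882H thus never shared a slide.

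No gene of the 13120 passed an adjusted p of 0.05 in any of the 3 comparisons with limma, so none of the 5 tested members did. The share called was 0% for R882H against empty vector, 0% for R882H against wild-type DNMT3A and 0% for wild-type DNMT3A against empty vector. At an unadjusted p under 0.05 the numbers were 1184, 1051 and 780 genes, which are 9.02%, 8.01% and 5.95% of those tested. By the brightest probe of each gene, Pbx3 was the only tested member under that unadjusted threshold, in both comparisons with R882H. The dimmer probes of Meis3 and Pknox1 were also under it, as given with those genes. The members are therefore described by their levels and spread.

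**Figure D1:**
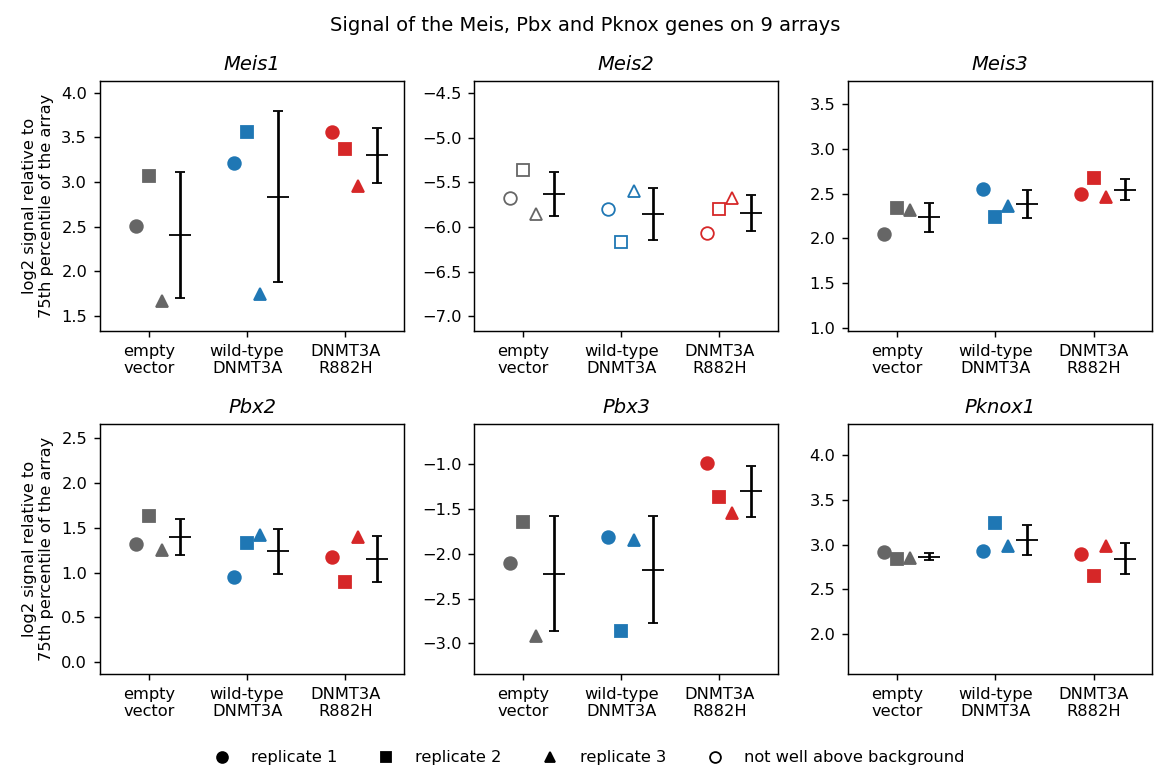
Signal of the 6 genes on each array, as log2 relative to the 75th percentile of the array, by group, with the mean and SD of 3 arrays to the right of the points and the same height of axis in every panel. Meis1 and Pbx3 spread over 1.90 and 1.93 log2 units across the 9 arrays, and the open symbols mark Meis2, which was not well above background on any array.

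Meis1, the member with the best known role in blood stem cells, was clearly measured on every array. Its level was 2.51, 3.06 and 1.66 in the empty vector replicates 1, 2 and 3. It was 3.21, 3.56 and 1.75 with wild-type DNMT3A, and 3.57, 3.37 and 2.96 with R882H. Replicate 3 was far below the other arrays in both control groups, while the R882H arrays lay close together, and the 3 groups overlapped. Empty vector averaged 2.41 ± 0.704 (SD, n = 3), wild-type DNMT3A 2.84 ± 0.960 (SD, n = 3) and R882H 3.30 ± 0.311 (SD, n = 3).

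The mean of Meis1 was 0.89 ± 0.494 (SE) log2 units higher with R882H than with empty vector, a 1.85-fold difference in which limma gave an adjusted p of 0.579. Its 95% interval ran from -0.23 to 2.01. Against wild-type DNMT3A the difference was 0.46 ± 0.494 (SE), and between wild-type DNMT3A and empty vector it was 0.43 ± 0.494 (SE). Both are smaller than these standard errors, and the 3 estimates share groups. Without empty vector replicate 3 the difference of R882H from empty vector was 0.51. Without wild-type replicate 3 the difference of R882H from wild-type DNMT3A was -0.08 and that of wild-type DNMT3A from empty vector was 0.97. Without wild-type replicate 2 these were 0.82 and 0.07. Within replicate numbers 1, 2 and 3, R882H minus empty vector was 1.06, 0.31 and 1.29, and wild-type DNMT3A minus empty vector was 0.70, 0.49 and 0.08, so both were positive for every number. R882H minus wild-type DNMT3A was 0.36, -0.18 and 1.21, with 1 number below 0. With replicate number as a block the SE of all 3 comparisons was 0.267, smaller than each difference, and the limma adjusted p-values were 0.305 against empty vector, 0.543 against wild-type DNMT3A and 0.688 between the controls. Deviations of same-numbered arrays correlated above 0.1 for every number between wild-type DNMT3A and empty vector, but below it for 1 number in each comparison with R882H. By the columns of the authors' deposited table R882H lay -0.24 from both other groups, and wild-type DNMT3A lay -0.0048 from empty vector.

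Markers of some other cell types moved with Meis1, and others did not. On empty vector replicate 3 and wild-type replicate 3, its lowest arrays, the 8 measured granulocyte and monocyte genes lay on average 1.43 and 0.97 above their 9-array means. On the other 7 arrays this deviation was between -0.83 and 0.23. The 8 LSK, stem and progenitor genes deviated by -0.95 and -0.41 on the same pair of arrays, the lowest of the 9. Slamf1, among these 8, was tested only because it was well above background on all R882H arrays. The 7 measured megakaryocyte genes deviated by -1.15 and -0.77. For the 4 measured endothelial genes it was -0.95 and -0.69, with 3 and 2 of them well above background, and Cdh5 and Cldn5 were not tested. The log2 of the summed endothelial signal was nevertheless highest of the 9 on wild-type replicate 3, at 3.03. B lineage genes deviated by -1.13 and 0.54, stromal genes by -0.24 and 0.10 and erythroid genes by -0.30 and -0.09. The 4 measured T and NK genes deviated by -0.06 and 0.10. The log2 of their summed signal was nevertheless 6.09 on both arrays, against 5.41 to 5.74 on the other arrays. Emcn and Col3a1, of the endothelial and stromal lists, were tested only because they were well above background on all R882H arrays. Over the groups, the log2 of the summed granulocyte and monocyte signal ran from 8.52 to 9.57 with empty vector, from 8.55 to 9.31 with wild-type DNMT3A and from 8.25 to 8.79 with R882H. For the LSK list these ranges were 5.80 to 6.56, 6.05 to 6.62 and 6.40 to 6.59. Ly6c2, S100a8 and Ltf, of the granulocyte and monocyte list, were not tested. The part of these cell types in the Meis1 result was not tested, and in sorted bulk cells fewer cells of a type and less RNA per cell cannot be told apart.

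**Figure D2:**
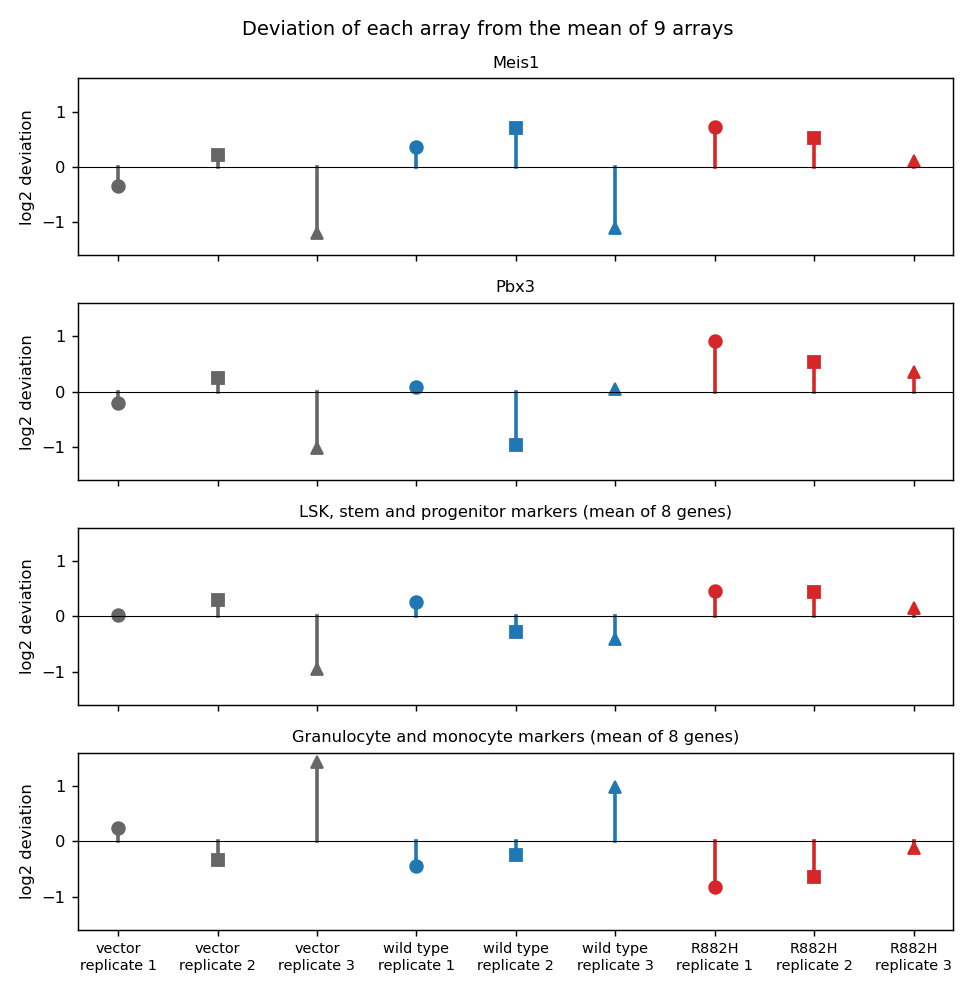
Deviation of each array from the mean of the 9 arrays, in log2 units, for Meis1, for Pbx3 and for the mean of 8 genes of each of the LSK and the granulocyte and monocyte marker lists; colours mark groups and shapes replicate numbers. Replicate 3 of empty vector and of wild-type DNMT3A have the lowest Meis1 and the highest granulocyte and monocyte markers, at 1.43 and 0.97, whereas Pbx3 is low on empty vector replicate 3 and wild-type replicate 2.

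Meis2, which is best known from limb, heart and nervous system development, was not well above background on any of the 9 arrays. Its only probe read -5.67, -5.37 and -5.86 with empty vector, -5.80, -6.17 and -5.60 with wild-type DNMT3A, and -6.07, -5.80 and -5.67 with R882H. The lowest signal called well above background on an array lay between -4.22 and -3.44, so every Meis2 value is under the range that the arrays could measure, and no difference is given.

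Meis3, the least studied of the Meis genes in blood, had 3 probes. The brightest read 2.05, 2.34 and 2.32 with empty vector, 2.56, 2.24 and 2.36 with wild-type DNMT3A, and 2.50, 2.68 and 2.47 with R882H. All R882H arrays lay above all empty vector arrays, while the wild-type arrays overlapped both groups. Empty vector averaged 2.23 ± 0.164 (SD, n = 3), wild-type DNMT3A 2.39 ± 0.159 (SD, n = 3) and R882H 2.55 ± 0.114 (SD, n = 3). R882H was 0.31 ± 0.158 (SE) above empty vector (limma, adjusted p = 0.57) and 0.16 ± 0.158 (SE) above wild-type DNMT3A. Wild-type DNMT3A was 0.15 ± 0.158 (SE) above empty vector. With scaling to the array median these were 0.15, 0.062 and 0.085, and by the columns of the authors' deposited table they were 0.18, 0.15 and 0.031. Leaving out 1 array kept all 3 above 0. The second fell to 0.087 without wild-type replicate 2 and 0.094 without R882H replicate 2, and was 0.24 without wild-type replicate 1. The third fell to 0.059 without empty vector replicate 1 and 0.068 without wild-type replicate 1.

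The other measured Meis3 probe, for the same transcript, gave the group means in the same order. It read -1.64, -1.60 and -1.57 with empty vector, -1.74, -1.38 and -1.05 with wild-type DNMT3A, and -1.06, -0.99 and -1.29 with R882H. The R882H arrays again lay above the empty vector arrays without overlap, and wild-type replicate 3 lay among them. The difference of R882H from empty vector was 0.49 ± 0.193 (SE) on this probe, with a limma p of 0.0327 and an adjusted p of 0.565 over all probes. Both probes read the same RNA samples, so they are not separate replicates. The third Meis3 probe was well above background on 1 array alone, R882H replicate 3.

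Pbx2, a broadly expressed partner of Meis and Hox proteins, read 1.32, 1.63 and 1.25 with empty vector. It read 0.95, 1.34 and 1.43 with wild-type DNMT3A and 1.17, 0.89 and 1.40 with R882H. The arrays of the 3 groups were interleaved, the highest being empty vector replicate 2 and the lowest R882H replicate 2. R882H lay -0.25 ± 0.201 (SE) from empty vector, with an adjusted p of 0.679 and an interval from -0.70 to 0.21, and -0.08 ± 0.201 (SE) from wild-type DNMT3A. Wild-type DNMT3A lay -0.16 ± 0.201 (SE) from empty vector. The first difference was -0.11 when R882H replicate 2 was left out, -0.37 when R882H replicate 3 was, and -0.13 when empty vector replicate 2 was. With scaling to the array median it was -0.41. By the columns of the authors' deposited table the 3 differences were -0.069, -0.016 and -0.054.

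Pbx3, the Pbx gene tied to Hoxa9 and Meis1 in leukaemia, was dim but above background on every array. It read -2.10, -1.65 and -2.92 with empty vector, -1.81, -2.87 and -1.85 with wild-type DNMT3A, and -0.98, -1.37 and -1.54 with R882H. All 3 R882H arrays lay above all 6 control arrays, with a gap between R882H replicate 3 and empty vector replicate 2 that was small beside the spread of the controls. The low control arrays were empty vector replicate 3 and wild-type replicate 2, so for wild-type DNMT3A it was not the array that was low in Meis1. Group means were -2.22 ± 0.643 (SD, n = 3), -2.18 ± 0.601 (SD, n = 3) and -1.30 ± 0.286 (SD, n = 3).

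R882H was 0.92 ± 0.38 (SE) above empty vector, a 1.9-fold difference with a limma p of 0.0386 and an adjusted p of 0.527. It was 0.88 ± 0.38 (SE) above wild-type DNMT3A, with a p of 0.0468 and an adjusted p of 0.617. Neither passed, and 7.29% and 7.57% of the tested genes had a smaller p in these comparisons. Wild-type DNMT3A and empty vector differed by 0.05 ± 0.38 (SE). With normexp background correction, which raises low signals by an offset, the first difference was 0.44 and the second 0.45. Without empty vector replicate 3 the first was 0.58, and without wild-type replicate 2 the second was 0.53. By the columns of the authors' deposited table they were 0.26 and 0.67, and wild-type DNMT3A lay -0.41 from empty vector. Each of the values with R882H kept it above the control group, at a smaller size. Megakaryocyte markers, of which 7 of 8 were measured and Ppbp was not, were also highest on the R882H arrays, with mean deviations of 0.30 to 1.1 there and -1.15 to 0.14 on the control arrays. The log2 of their summed signal ran from 2.71 to 4.03 with empty vector, from 2.89 to 3.35 with wild-type DNMT3A and from 3.76 to 4.98 with R882H, ranges that overlap. Gp5 of this list was tested only because it was well above background on all R882H arrays. B lineage markers, of which 6 of 10 were measured, had mean deviations of 0.44 to 1.28 on the R882H arrays. These were above the -1.13 to -0.37 with empty vector and overlapped the -0.69 to 0.54 with wild-type DNMT3A. Their median difference with R882H was 1.77 against empty vector and 1.2 against wild-type DNMT3A, but over the 3 genes measured on all 9 arrays it was 0.40 and 0.19. The log2 of their summed signal ran from 0.84 to 1.47 with empty vector, from 0.75 to 2.46 with wild-type DNMT3A and from 2.08 to 3.46 with R882H. Cd79a of this list was tested only because it was well above background on all R882H arrays. The part of either cell type in the Pbx3 result was not tested.

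Pknox1, the competitor of Meis1 for Pbx partners, read 2.91, 2.83 and 2.85 with empty vector, 2.92, 3.24 and 2.99 with wild-type DNMT3A, and 2.89, 2.65 and 2.98 with R882H. The wild-type arrays lay just above all empty vector arrays, and R882H overlapped both. R882H lay -0.02 ± 0.155 (SE) from empty vector, with an interval from -0.37 to 0.33, and -0.21 ± 0.155 (SE) from wild-type DNMT3A. Wild-type DNMT3A was 0.18 ± 0.155 (SE) above empty vector (limma, adjusted p = 0.875). By the columns of the authors' deposited table these were -0.024, -0.12 and 0.10.

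The dimmer Pknox1 probe, for the same transcript, gave the opposite order for wild-type DNMT3A. It read -2.05, -2.56 and -2.56 with empty vector, -2.99, -3.06 and -2.65 with wild-type DNMT3A, and -2.46, -2.46 and -2.39 with R882H. The wild-type arrays were the lowest here, below all others without overlap. Wild-type DNMT3A lay -0.51 ± 0.19 (SE) from empty vector and R882H lay 0.46 ± 0.19 (SE) above wild-type DNMT3A, with p-values of 0.0256 and 0.0377 and limma adjusted p-values of 0.794 and 0.611. The direction of Pknox1 between wild-type DNMT3A and the other groups is therefore not settled by its probes. Between R882H and empty vector the dimmer probe gave -0.05 ± 0.19 (SE).

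**Figure D3:**
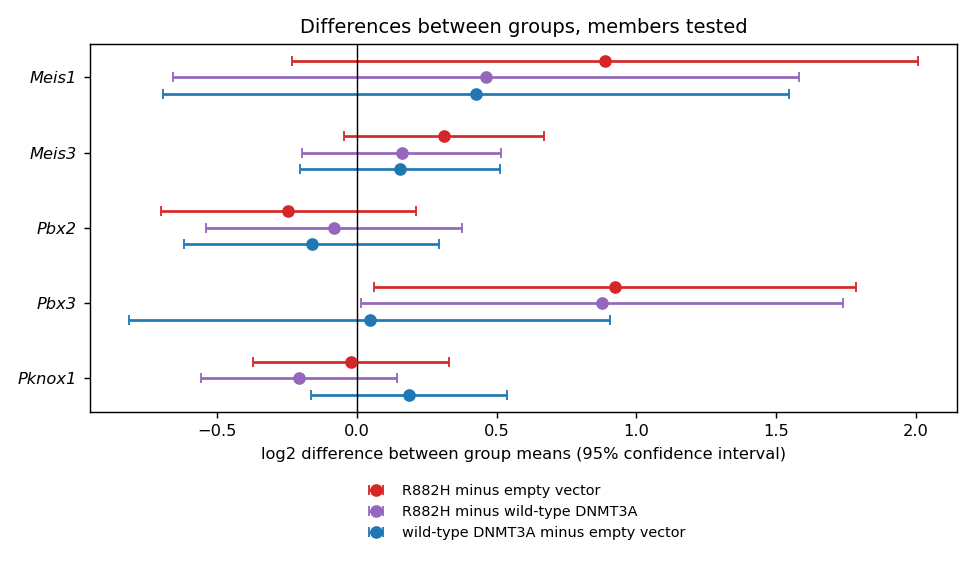
Differences between group means for the 5 tested members, in log2 units, with 95% confidence intervals from the fit over 13120 genes. The intervals of Pbx3 for R882H against empty vector and against wild-type DNMT3A, 0.06 to 1.79 and 0.02 to 1.74, leave out 0 before adjustment, and all others cover it.

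Across the members, R882H had the higher mean for 3 of 5 against empty vector (Meis1, Meis3 and Pbx3), beside 48.0% of all genes, and the same 3 were higher against wild-type DNMT3A, beside 48.3%. Wild-type DNMT3A had the higher mean than empty vector for 4 of 5, beside 51.7%. Groups that did not overlap, with the first group higher, were seen for Meis3 and Pbx3 in R882H against empty vector, where 9.5% of all genes had this. It was seen for Pbx3 in R882H against wild-type DNMT3A (6.79% of all genes) and for Pknox1 in wild-type DNMT3A against empty vector (5.69%). With 5 genes these counts are a description. The 2 comparisons with R882H share the R882H arrays, so they are not separate evidence.

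Within the slide that held 2 wild-type and 2 R882H arrays, R882H was above wild-type DNMT3A by 1.18 ± 0.41 (SE) for Pbx3, with a limma adjusted p of 0.664. The corresponding difference was 0.82 ± 0.634 (SE) for Meis1, 0.28 ± 0.203 (SE) for Meis3, -0.35 ± 0.213 (SE) for Pbx2 and -0.34 ± 0.223 (SE) for Pknox1. All 5 had the sign of the comparison over all slides, but these arrays are part of that comparison, so the signs are not separate evidence. Empty vector and R882H can be linked only through wild-type arrays. With slide as a block, the differences between them were 1.62 ± 1.004 (SE) for Meis1 and 1.59 ± 0.755 (SE) for Pbx3. Meis3 gave 0.61 ± 0.297 (SE), Pbx2 gave -0.80 ± 0.324 (SE) and Pknox1 gave -0.28 ± 0.29 (SE), and no adjusted p passed.

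**Figure D4:**
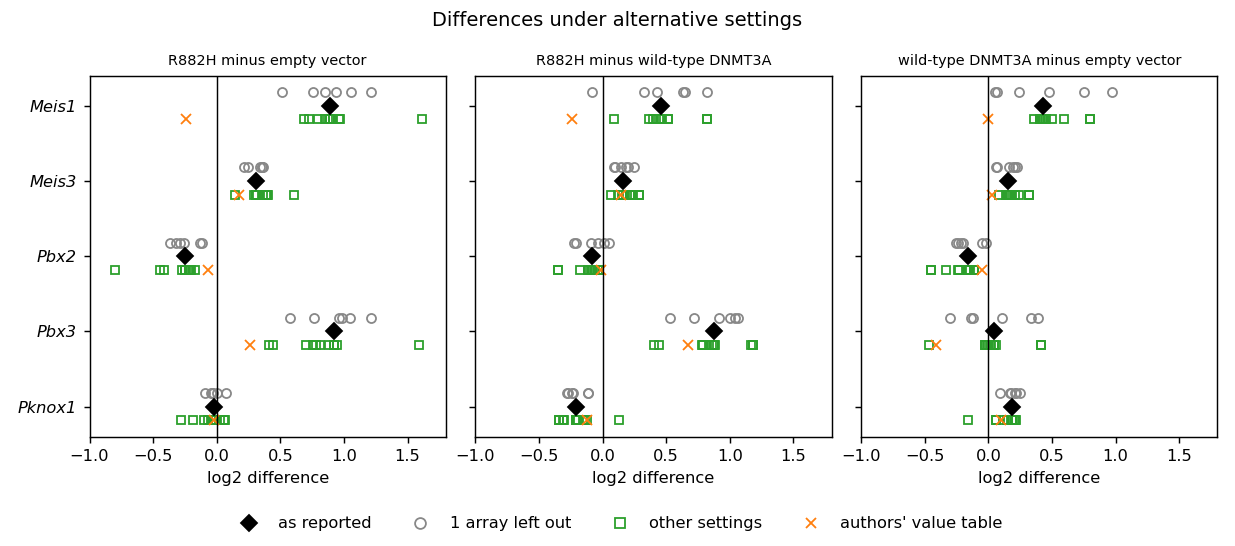
Differences of the 5 tested members in each comparison, in log2 units: as reported (diamonds), with 1 array left out (circles), under other settings (squares) and by the columns of the authors' deposited table (crosses). Pbx3 stays above 0 in both comparisons with R882H, from 0.26 to 1.59 and from 0.40 to 1.18, whereas Meis1 turns to -0.24 by the deposited table.

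Other genes were ranked by how closely their levels followed each member over the arrays. Among 11207 genes well above background on all 9 arrays, those most like Meis1 included Sgms1, a sphingomyelin synthase, and Mex3b, an RNA-binding protein, both with a Pearson r of 0.97 over 9 arrays. With empty vector replicate 3 and wild-type replicate 3 left out, r was 0.96 for Sgms1 and 0.92 for Mex3b. For Meis3 the nearest were Oas1d, Npcd and Atp8a1, a phospholipid flippase, each with an r of 0.97. For Pbx3 they were Msx3, a homeobox gene, at 0.95, Pim3, a serine/threonine kinase, at 0.94, and Igtp, an interferon-inducible GTPase, at 0.93. Without empty vector replicate 3 and wild-type replicate 2 the value for Igtp was 0.66, so its likeness leaned on those arrays. For Pbx2 they were Ube2v1 at 0.93, Polr1e at 0.91 and Armcx4 at 0.91. For Pknox1 they were Rad51ap1 at 0.96, Prr7 at 0.94 and Ankrd13b at 0.93, and these came to between 0.47 and 0.65 without wild-type replicate 2 and R882H replicate 2. These are the highest of many correlations over the same few arrays, which share groups and slides, and they are given as a description.

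Hox genes, which set positional identity in the embryo and self-renewal in blood, encode the partners of these proteins. Of 39 Hox genes 17 could be tested, and 0 passed in any comparison. In R882H against empty vector 12 of the 17 had the higher mean, beside 48.0% of all genes, with a median difference of 0.36 against -0.02 over all genes. At an unadjusted p under 0.05, 5 were higher, where 5.56% of all genes were. Of the 17 genes, 3 reached testing only through the R882H arrays, where their signal was high: Hoxa2, Hoxb2 and Hoxb5, named after their values were seen. Hoxa2 and Hoxb2 are among the 5, so their count was in part set by that filter. Over the 13 genes well above background on all 9 arrays, 9 had the higher mean and 3 were under that p. In R882H against wild-type DNMT3A 15 of 17 had the higher mean and 3 were under that p in this direction, beside 3.67% of all genes. Hoxa2 and Hoxb2 are again among these, and over the 13 genes 11 had the higher mean and 1 was under that p. In wild-type DNMT3A against empty vector 9 of 17 had the higher mean and 1 was under that p, beside 3.5%. The smallest p-values against empty vector were those of Hoxd13, at 1.1 ± 0.236 (SE) with an adjusted p of 0.333, and of Hoxb9, at 0.57 ± 0.153 (SE) with an adjusted p of 0.458. Hoxb9 was also 0.53 ± 0.153 (SE) above empty vector with wild-type DNMT3A, and R882H was 0.04 ± 0.153 (SE) above wild-type DNMT3A. For Hoxd13 these differences were 0.46 ± 0.236 (SE) and 0.65 ± 0.236 (SE).

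Of 12 other TALE homeobox genes 7 were tested and 0 passed. In R882H against empty vector 6 of 7 had the higher mean, beside 48.0% of all genes, with a median difference of 0.43. Against wild-type DNMT3A 7 of 7 did, beside 48.3%, with a median of 0.28. At an unadjusted p under 0.05, 1 of the 7 was higher in each of these comparisons, where 5.56% and 3.67% of all genes were. Irx1, an Iroquois homeobox gene, differed from empty vector by 0.38 ± 0.174 (SE), with an adjusted p of 0.557. Among 22 regulators and protein partners of Hox and Meis1, 18 were tested, 5 had the higher and 13 the lower mean with R882H than with empty vector, and 0 passed. The median difference was -0.04, and 48.0% of all genes had the higher mean in that comparison. The smallest p-values belonged to Ash2l, a subunit of histone H3 lysine methyltransferase complexes, at -0.31 ± 0.16 (SE), and to Npm1, nucleophosmin, at -0.29 ± 0.159 (SE), with adjusted p-values of 0.577 and 0.578.

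All 22 genes reported to lie downstream of Meis1, Pbx3 and Hoxa9 in blood cells were tested, and 0 passed. With R882H 16 had the higher mean than with empty vector, beside 48.0% of all genes, with a median difference of 0.13. Against wild-type DNMT3A 14 did, beside 48.3%, with a median of 0.07. At an unadjusted p under 0.05, 0 were higher against empty vector and 2 against wild-type DNMT3A, where 5.56% and 3.67% of all genes were. Between wild-type DNMT3A and empty vector the split was 11 higher and 11 lower. Trib2, a pseudokinase that cooperates in leukaemia, lay 0.37 ± 0.165 (SE) above empty vector with R882H, at an adjusted p of 0.552. Trib1, a related pseudokinase, lay -0.53 ± 0.251 (SE) from empty vector with R882H, at an adjusted p of 0.561. With wild-type DNMT3A Trib1 lay -0.89 ± 0.251 (SE) from empty vector, and R882H lay 0.36 ± 0.251 (SE) above wild-type DNMT3A. The list holds stem cell and megakaryocyte genes such as Cd34, Flt3, Kit and Pf4 that are also in the marker lists.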

How the data were processed

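RNA of 9 samples was hybridised to 1-colour Agilent mouse arrays after amplification from 3.67 ng of total RNA. Per the file headers, Agilent Feature Extraction 10.10.1.1 read the scans. The deposited intensity of each spot was background-corrected on a linear scale, with per-spot calls for outliers, saturation and signal above background, again per the file headers. The values of the authors' deposited table are log2 and centred on each probe's median, as found by setting its columns against the arrays, and no source used here describes its making.

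Spots with an outlier call were left out, log2 of the processed intensity, less the 75th percentile on that array, was averaged over the spots of a probe, and probes were named through their RefSeq accessions, which gave 27235 of 55681 probes 1 symbol. For each gene the brightest probe well above background on all 3 arrays of a group was tested with limma 3.58.1 in R 4.3.3 (lmFit and eBayes, all 9 arrays, 6 residual and 2.81 prior degrees of freedom), with Benjamini-Hochberg adjustment over 13120 genes and a threshold of 0.05. The code was tested on simulated data. The members, the gene lists and the tests were chosen with earlier results of these data known. Named genes were the members, the 2 genes of smallest p against empty vector in each list where none passed, and the 3 genes most like each member. Some genes under this rule are not reported here. Alternatives covered scaling, background correction, filters, probe choice, slide, replicate number and left-out arrays. Normexp used median in place of mean pixel signals, which the scanner output did not hold. Deviations of same-numbered samples correlated at 0.12 to 0.32 between wild-type DNMT3A and empty vector, all above 0.1, the limit set for pairing. This rests on the data and not on the labels. Wild-type replicate 1 correlated more with empty vector replicate 2, at 0.19, than with empty vector replicate 1, at 0.12. The numbers therefore do not single out a pair for every array. The reported differences come from the fit without pairing, and the block on replicate number is an alternative. With R882H the correlations of same-numbered samples started at 0.09 and 0.07.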

Additional observations from a re-analysis of the deposited data

How the results depend on the processing

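The number of genes passing stayed at 0 in every alternative run for the 3 comparisons. Of 325 alternative values of the 5 tested members 303 kept their sign, 22 reversed and 0 passed. Some settings could not reverse a sign. The replicate block, the fit of only the groups compared and the filters on dim probes changed the errors and left the differences of these members as they were. The alternatives also share arrays, so the count of kept signs is a description. The authors' deposited table, whose columns put 4 arrays in another group, turned Meis1 to -0.24 (R882H against empty vector), -0.24 (R882H against wild-type DNMT3A) and -0.0048 (wild-type DNMT3A against empty vector), and Pbx3 to -0.41 in the last comparison. Leaving out 1 array gave Meis1 differences of 0.51 to 1.21, -0.084 to 0.82 and 0.05 to 0.97 in the same order. It gave Pbx2 -0.23 to 0.049 for R882H against wild-type DNMT3A, Pbx3 -0.30 to 0.39 for wild-type DNMT3A against empty vector and Pknox1 -0.092 to 0.073 for R882H against empty vector. Among these, Pbx2 was 0.049 without R882H replicate 2 and 0.01 without wild-type replicate 3, Pbx3 was -0.30, -0.14 and -0.12 without empty vector replicate 3, wild-type replicate 1 and wild-type replicate 3, and Pknox1 was 0.00069 and 0.073 without empty vector replicate 1 and R882H replicate 2. Pbx3 between wild-type DNMT3A and empty vector was also -0.023 with the array median, -0.014 with cyclic loess, -0.0024 with normexp and the 75th percentile, -0.027 with quantile normalization and -0.47 without all arrays numbered 3, a setting chosen after seeing the data. Pknox1 between R882H and empty vector was 0.061 with cyclic loess, 0.027 with normexp and quantile and 0.067 with quantile normalization. The mean of its detected probes gave 0.13 for R882H against wild-type DNMT3A and -0.16 for wild-type DNMT3A against empty vector, since they differ in direction. The causes of the other reversals were not tested.

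With replicate number as a block, the difference of Meis1 between R882H and empty vector kept its value of 0.89 and had an SE of 0.267 and a limma adjusted p of 0.305. Over its alternatives the adjusted p ran from 0.296 to 0.996. The block changed no call for any member or for the number of genes passing, but genes at an unadjusted p under 0.05 went from 1184 to 1787 in that comparison. Fits within 1 slide were also chosen after seeing the data. With 3 arrays a group, no difference of a member could be told from 0 after adjustment. That holds for Pbx3 between R882H and empty vector, at 0.92 ± 0.38 (SE) with a limma adjusted p of 0.527.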
